A study of Rattus norvegicus with 10 samples.

Results

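Bile acid synthesis and conjugation was followed through 10 hepatocyte genes in the livers of control rats and of rats given diethylnitrosamine and thioacetamide (DEN/TAA). The genes were chosen by name for their role, and all non-control probes whose RefSeq accession matched one of them were taken. Of the 10 genes, 9 had a named probe and 9 were tested, through 10 of the 41012 non-control probes of the array; Baat, which joins activated bile acids to taurine or glycine, had no named probe here. The 9 genes stand among 6855 genes tested and 13832 named.

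All rats were male Wistar rats. The 5 control rats received vehicle only. The 5 DEN/TAA rats received 1 intraperitoneal injection of 200 mg/kg diethylnitrosamine in saline at 6 weeks of age, and from 2 weeks later injections of thioacetamide (200 mg/kg), given for 3 weeks and withheld for 1, in repeated cycles. The labels give the treatment as lasting 23 weeks and the age of every rat as 23 weeks, so the age at sampling is not settled here. The series title presents the protocol as a model of liver cancer arising in cirrhosis; whole liver was sampled, and the labels do not say whether a sample held nodules, tumour or surrounding tissue.

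Hepatocytes turn cholesterol into bile acids. In the classic pathway Cyp7a1 adds the first hydroxyl group and sets the rate, and Cyp8b1 adds the one that makes cholic acid. Cyp27a1, a mitochondrial enzyme, oxidises the side chain and with Cyp7b1 forms the alternative pathway. Slc27a5 couples bile acids to coenzyme A and Baat then conjugates them. Slc10a1 (NTCP) takes conjugated bile acids up from portal blood and Abcb11 (BSEP) pumps them into the canaliculus. Bile acids bind the nuclear receptor Nr1h4 (FXR), which induces Nr0b2 (SHP), a corepressor of Cyp7a1 and Cyp8b1.

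RefSeq promoter sequences (GRCr8) were matched for 6 of the 10 genes: Cyp8b1, Cyp27a1, Slc27a5, Baat, Slc10a1 and Nr0b2. The 250 bases before the annotated start are shown for 3 genes that fell strongly, Slc10a1, Cyp8b1 and Slc27a5, and for Nr0b2, which did not pass the test, so that the letters of genes with unlike behaviour can be read side by side. Each is written 5′ to 3′ along the gene, with capitals at matches, on either strand, to AGGTCA (a nuclear receptor half-site), CAAGGT (the core of an extended half-site) or GTTAAT (an HNF1 half-site). The regions are chr6:106357945-106358194 (minus strand) for Slc10a1, chr8:130457593-130457842 (minus strand) for Cyp8b1, chr1:82699336-82699585 (minus strand) for Slc27a5 and chr5:151062910-151063159 (plus strand) for Nr0b2.
Slc10a1: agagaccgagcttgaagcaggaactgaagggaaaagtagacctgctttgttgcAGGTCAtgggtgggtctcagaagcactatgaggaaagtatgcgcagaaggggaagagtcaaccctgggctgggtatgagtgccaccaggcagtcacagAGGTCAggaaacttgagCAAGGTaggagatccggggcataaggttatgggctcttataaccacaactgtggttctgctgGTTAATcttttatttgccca
Cyp8b1: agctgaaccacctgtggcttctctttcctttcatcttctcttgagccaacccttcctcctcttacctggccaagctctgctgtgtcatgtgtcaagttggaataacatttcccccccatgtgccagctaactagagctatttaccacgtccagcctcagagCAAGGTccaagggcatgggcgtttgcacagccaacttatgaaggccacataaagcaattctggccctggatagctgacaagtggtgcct
Slc27a5: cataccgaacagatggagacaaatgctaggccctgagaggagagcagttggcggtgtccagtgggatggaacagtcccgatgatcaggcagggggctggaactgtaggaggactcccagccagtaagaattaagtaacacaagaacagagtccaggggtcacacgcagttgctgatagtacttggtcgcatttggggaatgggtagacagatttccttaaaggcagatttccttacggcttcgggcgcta
Nr0b2: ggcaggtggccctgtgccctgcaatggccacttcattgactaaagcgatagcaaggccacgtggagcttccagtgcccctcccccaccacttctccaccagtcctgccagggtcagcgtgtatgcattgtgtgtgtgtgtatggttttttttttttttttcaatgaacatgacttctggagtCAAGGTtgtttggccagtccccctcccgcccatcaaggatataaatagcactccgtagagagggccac
Slc10a1 held AGGTCA at -197 to -192 and at -99 to -94, CAAGGT at -82 to -77 and GTTAAT at -20 to -15 from its start. Cyp8b1 held CAAGGT at -89 to -84 and Nr0b2 held it at -68 to -63, while the window of Slc27a5 held none of the 3 motifs. Cyp27a1, not printed, held AGGTCA at -115 to -110 and, on the opposite strand, an AGGTCA match at -236 to -231 that overlaps a CAAGGT match at -234 to -229. Of all 33469 promoter windows of this length, 14.1% held AGGTCA, 11.7% held CAAGGT and 6.45% held GTTAAT on either strand. These are matches of letters. Genes with and without them fell.

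RNA was labelled with Cy3 from 150 ng of total RNA per rat and hybridised to 1 array per rat, so precision is limited by 5 arrays in each group. Values are log2 processed signals minus the array's own 75th percentile, so 0 is a signal at that percentile. A value compares a gene between rats and not with another gene. Spots well above background made up 16.5% to 32.9% of control and 36.1% to 46.6% of DEN/TAA arrays, so weak signals were measured less well in control. Before scaling, the mean log2 signal of the 5 brightest spike-in control probes ran from 12.4 to 13.5 in control and from 13.6 to 14.1 in DEN/TAA. Every DEN/TAA array was thus brighter in its spike-ins, and array brightness and treatment cannot be told apart. All 16 hepatocyte markers used to check the tissue, secreted plasma proteins such as Alb, were above background on all 10 arrays. Their mean level ran from 5.06 to 5.50 in control and from 3.93 to 4.18 in DEN/TAA, 15 of the 16 being lower in the limma test described below. That count depended on the scaling: 7 were lower and 1 higher with quantile normalisation, 8 and 1 with normexp and quantile, 8 and 2 in the authors' table and 6 and 1 with spike-in scaling, and the median difference moved from -1.03 to -0.28 with quantile normalisation. Of all 6855 genes tested, 1116 were lower and 2689 higher in the main fit. These counts were 1354 and 1940 with quantile normalisation and 1336 and 2055 with normexp and quantile. They were 1315 and 2040 in the authors' table and 396 and 4443 with spike-in scaling. In whole liver, fewer hepatocytes and less RNA per hepatocyte cannot be told apart.

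Of the 9 tested bile acid genes, 8 fell in DEN/TAA liver and 0 rose (limma, Benjamini-Hochberg adjusted p under 0.05 over all 6855 genes). Among all tested genes 16.3% fell and 39.2% rose by the same rule. The median log2 difference, DEN/TAA minus control, was -2.17 over the 9 genes and 0.33 over all tested genes. With spike-in scaling 5 of the 9 fell, where 5.78% of all genes fell and 64.8% rose. The fall ranged from 2.14-fold for Cyp27a1 to 16.0-fold for Slc27a5. In 7 of the 9 genes every DEN/TAA rat lay below every control rat, against 11.4% of all tested genes; the values of Cyp7a1 and Nr0b2 overlapped.

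**Figure D1:**
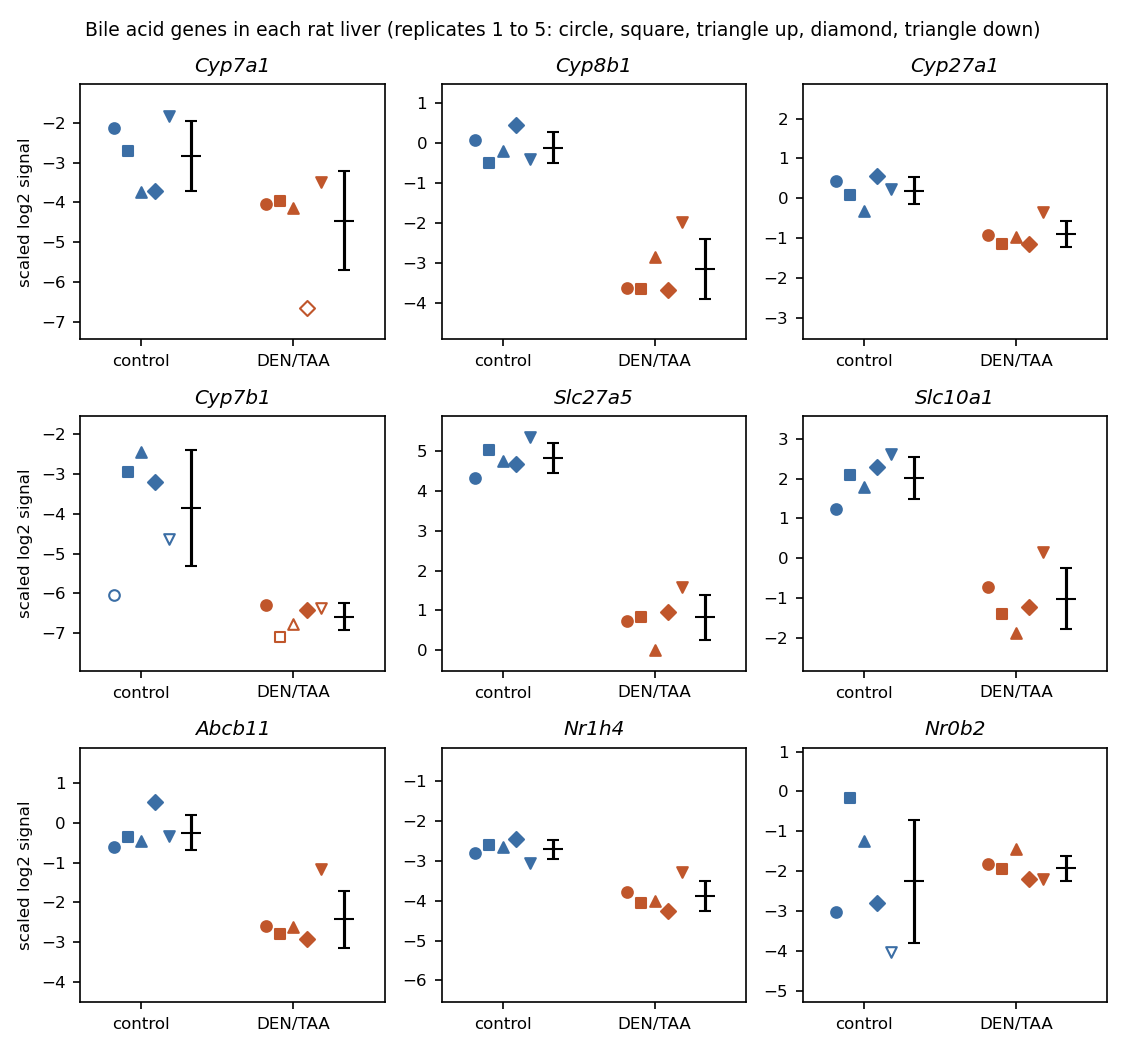
Scaled log2 signal of the 9 tested genes in each rat, control in blue and DEN/TAA in orange, with the mean ± SD (n = 5) as black bars; open symbols were not well above background, and every panel spans the same log2 range. The groups stand apart for 7 genes and overlap for Cyp7a1 and Nr0b2, whose control values run from -4.04 to -0.16.

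The conjugating ligase Slc27a5 changed most. Its values were 4.33, 5.03, 4.74, 4.68 and 5.35 in control replicates 1 to 5 and 0.72, 0.84, 0.01, 0.96 and 1.58 in DEN/TAA replicates 1 to 5. The lowest control rat stood far above the highest treated one. The difference was -4.003 (SE 0.28, 95% interval -4.61 to -3.40, limma adjusted p = 9.84e-07), the 21st largest fall of the 6855 genes. A separate probe for Slc27a5 gave a mean of 2.98 (SD 0.15, n = 5) in control rats and -1.45 (SD 0.65, n = 5) in treated rats, a difference of -4.43 (SE 0.28, limma adjusted p = 8.31e-07 over all 14277 probes tested). Both probes were above background on all 10 arrays, and both showed the fall in each of the 3 slides, by -4.26 to -3.43 and by -4.61 to -3.59.

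In the classic pathway, Cyp8b1 fell 8.31-fold. Its values were 0.07, -0.50, -0.18, 0.47 and -0.39 in control and -3.64, -3.66, -2.84, -3.69 and -1.97 in DEN/TAA. The treated rats were all low, with replicate 5 nearest the controls. The difference was -3.05 (SE 0.34, 95% interval -3.79 to -2.32, limma adjusted p = 2.14e-05).

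Cyp7a1, the enzyme that sets the rate of the classic pathway, changed less clearly. Its values were -2.13, -2.71, -3.74, -3.72 and -1.83 in control and -4.05, -3.96, -4.14, -6.65 and -3.49 in DEN/TAA. Control replicates 3 and 4 lay below DEN/TAA replicate 5, so the groups overlapped, and DEN/TAA replicate 4 was far below the other treated rats and was not well above background. The difference was -1.63 (SE 0.58, 95% interval -2.90 to -0.36, limma adjusted p = 0.0317). The call ended without control replicate 1 (-1.46, adjusted p = 0.0717), 2 (-1.60, adjusted p = 0.0575) or 5 (-1.38, adjusted p = 0.0696). It also ended with spike-in scaling (-0.97, adjusted p = 0.117), and the difference was -1.09 without DEN/TAA replicate 4. The call held at smaller sizes with normexp and quantile (-1.26, limma adjusted p = 0.00165) and in the authors' table (-0.88, limma adjusted p = 0.00222).

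In the alternative pathway, Cyp27a1 showed the smallest of the called falls. Its values were 0.44, 0.07, -0.33, 0.55 and 0.23 in control and -0.93, -1.14, -0.98, -1.15 and -0.34 in DEN/TAA. Control replicate 3 and DEN/TAA replicate 5 nearly met, at -0.333 and -0.341. The difference was -1.10 (SE 0.21, 95% interval -1.56 to -0.64, limma adjusted p = 0.00106), close to the median of -1.10 over all called falls, and with spike-in scaling it was -0.44 (adjusted p = 0.212).

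Cyp7b1, the oxysterol hydroxylase of that pathway, was measured near the detection limit. Its values were -6.03, -2.95, -2.44, -3.21 and -4.64 in control and -6.28, -7.10, -6.76, -6.42 and -6.36 in DEN/TAA. Signal well above background was seen in control replicates 2, 3 and 4 and in treated replicates 1 and 4 alone, so the gene passed the filter with the lowest number of arrays allowed, 5 of 10. The difference was -2.73 (SE 0.57, limma adjusted p = 0.00181). The nearest values of the groups, -6.03 and -6.28, include 1 from a control array that did not detect the gene. The size depended on how background was handled, being -1.34 with normexp and quantile and -0.80 in the authors' table.

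The carriers at both faces of the hepatocyte fell. Slc10a1 values were 1.23, 2.10, 1.80, 2.29 and 2.61 in control and -0.73, -1.41, -1.87, -1.23 and 0.16 in DEN/TAA. No treated rat reached the lowest control. The difference for this uptake carrier was -3.02 (SE 0.37, 95% interval -3.82 to -2.22, limma adjusted p = 4.00e-05), an 8.11-fold fall.

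Abcb11 values were -0.60, -0.37, -0.45, 0.51 and -0.33 in control and -2.60, -2.79, -2.61, -2.93 and -1.16 in DEN/TAA. Control replicate 4 and DEN/TAA replicate 5 stood above the rest of their groups. The export pump differed by -2.17 (SE 0.33, 95% interval -2.90 to -1.45, limma adjusted p = 0.000212), a 4.50-fold fall.

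The bile acid receptor Nr1h4 fell. Nr1h4 values were -2.80, -2.61, -2.66, -2.44 and -3.06 in control and -3.79, -4.05, -4.01, -4.26 and -3.27 in DEN/TAA. All treated rats were lower, by 2.24-fold on average. The difference was -1.17 (SE 0.20, 95% interval -1.60 to -0.73, limma adjusted p = 0.000486), and the call ended with spike-in scaling (-0.51, adjusted p = 0.165).

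Nr0b2 values were -3.04, -0.16, -1.26, -2.79 and -4.04 in control and -1.83, -1.95, -1.45, -2.20 and -2.20 in DEN/TAA. The treated rats lay inside the range of the controls. The difference was 0.33 (SE 0.59, 95% interval -0.97 to 1.63, limma adjusted p = 0.662), an interval that leaves room for a change of either sign, and it equalled the median of all tested genes. Its sign depended on the scaling: it was 0.99 with spike-in scaling and -0.083 in the authors' table, and neither passed the threshold. It was -0.12 without control replicate 5, where Nr0b2 was not well above background. The change of Nr1h4 minus that of Nr0b2 was -1.49 (SE 0.68, exact permutation p = 0.0794, adjusted p = 0.136 over the pairs described below), so unequal change was not shown. Within slides 1, 2 and 3 the differences of Nr0b2 were -0.29, -0.57 and 1.21.

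The spread of Nr0b2 between rats was wide in control and smaller in DEN/TAA, with SDs of 1.54 and 0.31 (n = 5 each). The median SD over all tested genes was 0.39 in control and 0.26 in DEN/TAA. Of tested genes, 99.6% had a smaller control SD than Nr0b2 and 62.1% a smaller DEN/TAA SD, so its spread in DEN/TAA was not unusual. Cyp7b1 and Cyp7a1 also varied widely in control, with SDs of 1.46 and 0.88. Control replicates 5 and 1, the lowest for Nr0b2, were the highest for Cyp7a1 and the lowest for Cyp7b1. Those were also the dimmest control arrays, with 16.5% and 22.8% of spots well above background, and the part of dimness in these values was not tested. Without both arrays the Cyp7a1 difference was -1.07 (limma adjusted p = 0.184) and that of Nr0b2 was -0.53 (adjusted p = 0.384).

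One treated rat had higher values than the others for most of the genes. DEN/TAA replicate 5 had the highest value of the treated rats for 7 of the 9 genes, all but Cyp7b1 and Nr0b2, and lay on average 0.72 above the treated mean. DEN/TAA replicate 4 was the lowest for 6 of the 9, at 0.45 below the treated mean on average. The same counts over all tested genes were not made, so neither count is read as particular to these genes. Replicate 5 did not stand apart in the hepatocyte marker mean, 4.15 against 3.93 to 4.18 in the other treated rats, and it was the only treated rat on slide 3. Without it the differences of Abcb11, Slc10a1 and Cyp8b1 were -2.49, -3.31 and -3.35. Within slides 1, 2 and 3 they were -2.21, -2.32 and -1.25 for Abcb11. They were -2.73, -3.35 and -2.29 for Slc10a1 and -3.44, -3.08 and -2.01 for Cyp8b1. Over all tested genes the deviations of this rat had r = 0.57 with control replicate 4 and 0.11 with control replicate 5, both on slide 3. The part of the slide was not tested.

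**Figure D2:**
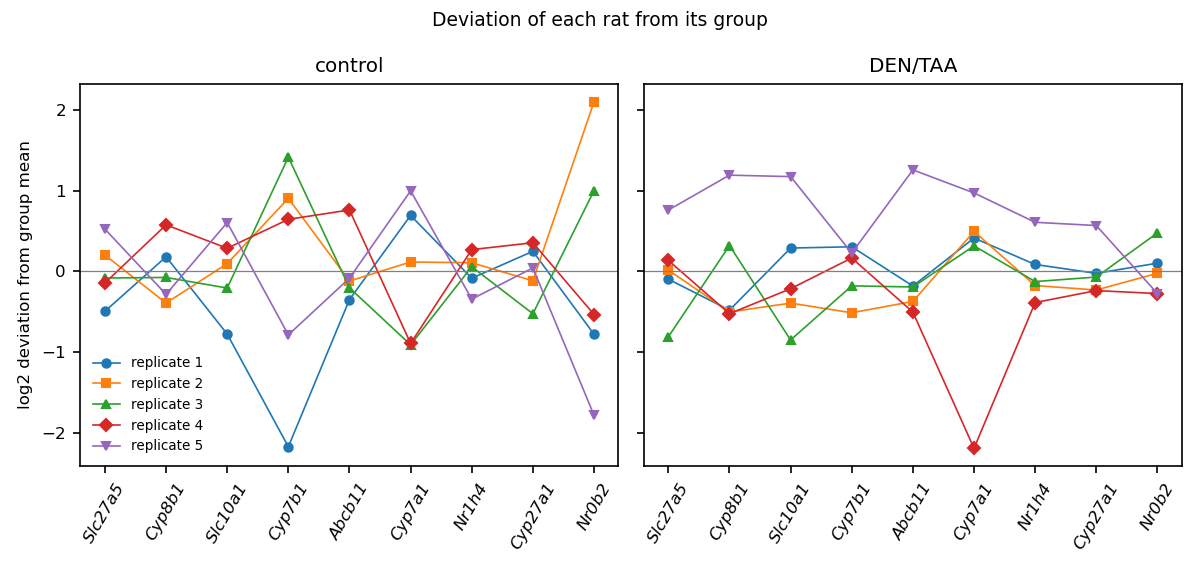
Log2 deviation of each rat from its own group's mean for the 9 genes, control at left and DEN/TAA at right, 1 line per rat. DEN/TAA replicate 5 lies above the treated mean for 8 of the 9 genes, while control rats change places from gene to gene and spread most for Cyp7b1, Cyp7a1 and Nr0b2.

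The genes did not fall to the same degree. The difference between 2 genes within an array is not altered by subtracting a constant from the array, and its change between groups was compared for all 36 pairs of the 9 genes with two-sided exact permutation tests, adjusted by Benjamini-Hochberg over the 36 pairs. In 18 pairs the changes differed (adjusted p under 0.05). The share of unequal pairs among all tested genes was not computed, so the count is not read as particular to these genes. The change of Slc27a5 minus that of Nr1h4 was -2.84 (SE 0.31), minus that of Abcb11 -1.83 (SE 0.36) and minus that of Slc10a1 -0.98 (SE 0.21), each without overlap between groups (exact permutation p = 0.00794, the smallest that 5 rats against 5 can give, adjusted p = 0.0238). The change of Cyp8b1 minus that of Cyp27a1 was -1.96 (SE 0.26), with the same exact permutation p.

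For other pairs no difference was shown. Cyp8b1 and Slc10a1 differed in change by -0.034 (SE 0.45, exact permutation p = 0.929), and Cyp27a1 and Nr1h4 by 0.066 (SE 0.19, exact permutation p = 0.754). Cyp7a1 and Cyp8b1, both of the classic pathway, differed by 1.42 (SE 0.69, exact permutation p = 0.0794, adjusted p = 0.136). The number of unequal pairs was 13 with quantile normalisation, 23 with normexp and quantile and 23 in the authors' table. Leaving out 1 rat lowered it to 12 at least, as when control replicate 4 or 5 or DEN/TAA replicate 2 or 3 was left out.

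**Figure D3:**
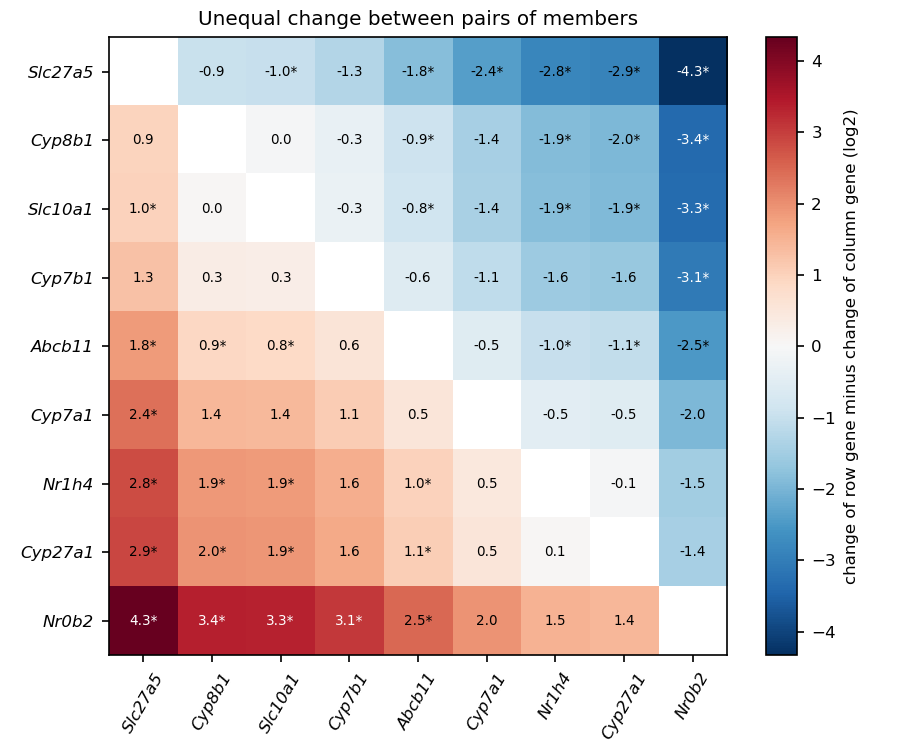
Change of the row gene minus change of the column gene, DEN/TAA against control, in log2 units, for all pairs of the 9 genes; asterisks mark the 18 pairs with an adjusted exact permutation p under 0.05. Slc27a5, in the top row, fell more than Slc10a1, Abcb11, Cyp7a1, Nr1h4, Cyp27a1 and Nr0b2.

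Set against the mean of 16 hepatocyte markers the group divided. The division is stated for that mean, since the markers did not move alike. Their own differences in the main fit ran from -2.63 to 0.28, a range that holds the -2.17 of Abcb11. When the mean of the 16 hepatocyte markers was subtracted from each array in place of its percentile, Slc27a5 still differed by -2.79 (SE 0.28), Cyp8b1 by -1.85 (SE 0.32), Slc10a1 by -1.81 (SE 0.36), Cyp7b1 by -1.52 (SE 0.61) and Abcb11 by -0.96 (SE 0.32). These 5 genes passed the limma test on that scale, where 3.71% of all genes were lower. Of the 16 markers themselves, 5 were lower and 5 higher on that scale. The groups stayed apart on it for Slc27a5 and Cyp8b1 and overlapped for Slc10a1 (exact permutation p = 0.0159), Abcb11 (p = 0.0397) and Cyp7b1 (p = 0.103). Cyp7a1 differed by -0.42 (adjusted p = 0.471), and Cyp27a1 and Nr1h4 by 0.11 and 0.044 (adjusted p = 0.605 and 0.862). Nr0b2 was higher on that scale, by 1.54 (SE 0.65, adjusted p = 0.0387), as were 84.5% of all tested genes.

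**Figure D4:**
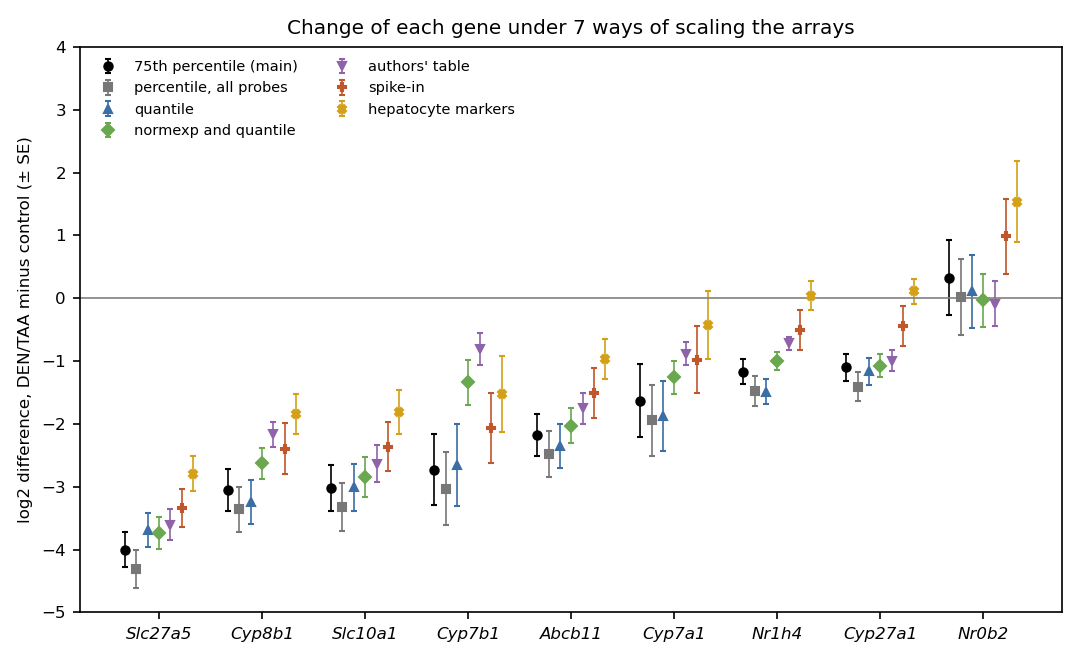
Log2 difference, DEN/TAA minus control, with its SE, for each of the 9 genes under 7 ways of scaling the arrays. Slc27a5, Cyp8b1, Slc10a1, Cyp7b1, Abcb11 and Cyp7a1 lie below 0 under all 7, though the SE bar of Cyp7a1 crosses 0 when scaled to hepatocyte markers. Cyp27a1 and Nr1h4 reach 0 on that scale, and Nr0b2 lies on both sides.

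The rest of the pathway was read from 6 lists of 78 other genes, of which 67 had a named probe and 53 were tested. Of these 23 fell and 13 rose, 43.4% and 24.5%, against 16.3% and 39.2% of all tested genes, and their median difference was -0.52. Of the 13 that rose, Ch25h, Abcc1, Abcc3, Abcc4 and Ugt2b7 were detected on no control array and entered the test through the DEN/TAA arrays alone. Among synthesis enzymes 9 of 11 fell and 1 rose, with a median of -1.20. With spike-in scaling 5 fell (median -0.54, against 0.99 for all genes). With hepatocyte marker scaling 3 fell and 2 rose (median 0.01, against 1.54 for all genes). Acox2, the peroxisomal oxidase that shortens the side chain, differed by -3.02 (SE 0.27) and Hsd3b7, which acts after Cyp7a1 on the sterol ring, by -2.16 (SE 0.26). Ch25h, which makes an oxysterol in macrophages and other cells, was above background on 5 DEN/TAA and 0 control arrays and was at least 1.27-fold higher.

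Uptake carriers of the Slco family moved in the direction of Slc10a1. In the uptake list 4 of 5 tested genes fell, with a median of -2.07, among them Slco2b1 at -2.07 (SE 0.21) and Slco1b2 at -2.48 (SE 0.25). By the same rule 16.3% of all tested genes fell and 39.2% rose, with a median of 0.33. Ephx1, microsomal epoxide hydrolase, rose by 2.32 (SE 0.25). Slco genes are related in sequence and sharing of signal between their probes was not tested.

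Among canalicular export genes other than Abcb11 more rose than fell, as among all tested genes. In that list 5 of 9 tested genes rose and 1 fell, with a median of 0.64. Of all tested genes 39.2% rose and 16.3% fell, with a median of 0.33. Of the 4 genes of the list that were detected on all 10 arrays 2 rose and 0 fell. Ezr, an actin linker that is also abundant in bile duct cells, rose by 4.02 (SE 0.17) and was detected on 3 of the 5 control arrays. A separate Ezr probe was above background on no array of either group and differed by -0.89, so the rise rests on 1 probe. Abcc2, the conjugate pump beside Abcb11, rose by 1.27 (SE 0.17). Abcb4, which moves phospholipid into bile, differed by -0.86 (SE 0.26), a call that ended with spike-in scaling (-0.20, adjusted p = 0.581) and with hepatocyte marker scaling, where the sign turned (0.35, adjusted p = 0.298). In the sinusoidal list 3 of 4 rose and 1 fell. Abcc3, an exporter of bile acid conjugates to blood, was at least 6.33-fold higher and Abcc1 at least 4.43-fold higher; no control array and every DEN/TAA array detected them. Abcc4, the other gene called as higher, was also detected on no control array; its DEN/TAA mean of -5.14 (SD 0.28) lay within the range of the lowest detected signals of the control arrays, -5.94 to -3.75, so no fold is given. All 3 entered the test through the DEN/TAA arrays alone, and with a filter on all 10 arrays only Abcc6 of this list is tested. Abcc6 differed by -2.82 (SE 0.18).

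Among 18 tested receptors and transcription factors of bile acid genes, 7 fell and 2 rose, with a median of -0.55. In the same fit 16.3% of all genes fell and 39.2% rose, with a median of 0.33. The counts of this list moved with the scaling, which shifts all genes of an array together. With spike-in scaling 3 fell and 2 rose (median 0.11), where 5.78% of all genes fell and 64.8% rose (median 0.99). With hepatocyte marker scaling 2 fell and 7 rose (median 0.66), where 3.71% of all genes fell and 84.5% rose (median 1.54). With the percentile over all probes 11 fell and 1 rose, where the median of all genes was 0.02. Onecut1 (HNF6) differed by -2.73 (SE 0.33) and Foxa1 by -2.25 (SE 0.33), while Mafg, a small Maf protein that represses bile acid genes, rose by 0.97 (SE 0.22). Nr2f2 differed by 1.12 (SE 0.42), a call near the threshold (adjusted p = 0.0407) that ended with the percentile over all probes (0.81), quantile normalisation (0.91), normexp and quantile (0.57), in the authors' table (0.45) and with the slide as a block (0.86), and when any 1 rat but control replicate 3 or DEN/TAA replicate 2 was left out. Nr5a2 (LRH-1), which drives Cyp7a1 and Cyp8b1, differed by -0.31 (SE 0.26, adjusted p = 0.340), and by 0.90 with hepatocyte marker scaling (adjusted p = 0.00802). Of the 6 tested genes of sulphation and glucuronidation 1 fell and 1 rose. Their median was -0.41, and 0.24 with spike-in scaling, where that of all genes was 0.99. Sult2a1, a bile acid sulphotransferase, differed by -4.21 (SE 0.44) and Ugt2b7 was at least 22.3-fold higher. The ileal hormone gene Fgf19, the receptor Gpbar1 and the exporter subunit Slc51a were not well above background on any of the 10 arrays.

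**Figure D5:**
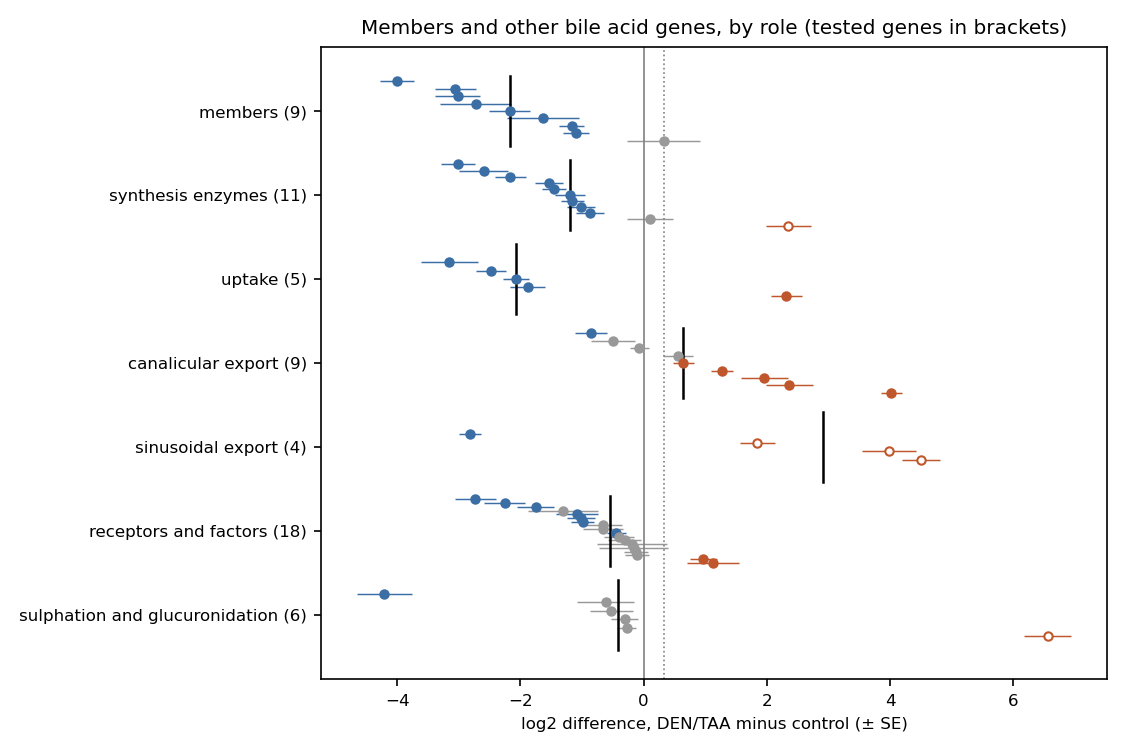
Log2 difference with SE for the 9 members and the 53 other tested bile acid genes by role, blue for genes that fell, orange for genes that rose and grey for the others; open circles were above background on no control array, black bars are medians and the dotted line is the median of all tested genes, 0.33. Synthesis and uptake genes lie mostly left of 0; 3 of the export genes right of 0 are open circles.

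Markers of cells other than hepatocytes differed between the groups as well. Of all tested genes 39.2% rose and 16.3% fell. Of 11 bile duct cell markers 6 were tested, 3 rose and 1 fell; Krt19 and Spp1 were detected on no control array and entered the test through the DEN/TAA arrays alone, and with a filter on all 10 arrays 0 are tested. Their mean level ran from -5.73 to -4.86 in control and from -3.94 to -2.91 in DEN/TAA. Krt19 was at least 9.93-fold higher, Epcam rose by 2.67 (SE 0.23), and Cftr was not above background on any array. Of 10 macrophage markers 8 rose and 1 fell, with mean levels of -2.74 to -1.61 in control and -0.87 to -0.24 in DEN/TAA. Trem2, 1 of those that rose, was detected on no control array and entered the test through the DEN/TAA arrays alone. With a filter on all 10 arrays 7 of 8 rose and 1 fell. Of 8 tested stellate cell and fibroblast markers 6 rose, with mean levels of -3.83 to -3.37 in control and -1.96 to -1.33 in DEN/TAA. With that filter 2 of 4 rose. The part of these cells in the lower bile acid signals was not tested.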

How the data were processed

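Spot intensity in the deposited scanner output came from Agilent Feature Extraction, version 11.5.1.1 in the headers and 15.5 in the submitters' processing notes. The processed intensity is background-subtracted within the array and not scaled between arrays, per the file headers. The authors' deposited series table holds log2 values; each column had the rank order of the same array's raw median intensity and a median of 8.59, so its direction is known; its normalization method: not given in the sources used here.

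Control and outlier-flagged spots were left out, spots of a probe averaged on the log2 scale, and each array's 75th percentile over the 6229 probes detected on all arrays subtracted. Probes were named through RefSeq accessions without versions (GRCr8); 17502 of 41012 had 1 symbol and 23510 none. Probes well above background on at least 5 of 10 arrays were kept, and a gene was represented by its brightest passing probe. Groups were compared with limma 3.58.1 in R 4.3.3 on all 10 arrays, without covariates, and checked on simulated data. No spot was saturated. Where a gene was above background on no array of a group, "at least N-fold" compares the brighter mean with the dimmer one after raising each dim array to its lowest detected signal where the gene lay below it. With 1 array per rat, the p-values set each group difference against the variation between these arrays, which holds rat, labelling and slide together.

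The members and lists were chosen with earlier results of these data known; the pair comparisons were added after the data were seen. The genes named outside the members are, per list, up to 2 called genes a direction, by smallest adjusted p, and for each member the 2 genes nearest in pattern; Nr5a2, Abcc4, Spp1, Fgf19, Gpbar1, Slc51a, Cftr and Alb are named besides. The 3 slides were each 1 scan and each held both groups. Alternatives were other scalings, normexp background correction of median intensity (offset 50), filters, blocks and leaving out each rat.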

Additional observations from a re-analysis of the deposited data

Results flagged for a closer look

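In 4 of 20 groups of 5 values (10 probes in both groups of rats), 1 rat stood apart, its gap to the nearest other rat taking more than 0.71 of the group's range. Independent normal values would give about 1 in 20. These groups share the same rats, and Slc27a5 has more than 1 probe, so they are not independent and no excess is read from the count. Cyp7a1 in DEN/TAA replicate 4 was -6.65, against -4.14 to -3.49 in the other treated rats, and was not well above background there. Cyp27a1 in DEN/TAA replicate 5 was -0.34, against -1.15 to -0.93. Abcb11 in the same rat was -1.16, against -2.93 to -2.60. Abcb11 in control replicate 4 was 0.51, against -0.60 to -0.33 in the other control rats.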

How the results depend on the processing

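The falls of Slc27a5, Cyp8b1, Slc10a1, Abcb11 and Cyp7b1 kept their direction and their call under every alternative that gave a test; Cyp7b1, Cyp7a1 and Nr0b2 gave none with the filter on all 10 arrays. With spike-in scaling Cyp7a1 (-0.97), Cyp27a1 (-0.44) and Nr1h4 (-0.51) lost their call, 5 members and 14 of the other bile acid genes were lower, and of all genes 396 were lower and 4443 higher. With hepatocyte marker scaling Cyp7a1 (-0.42) lost its call, Cyp27a1 (0.11) and Nr1h4 (0.044) changed sign, and Nr0b2 (1.54) passed; 5 members were lower and 1 higher, 11 and 23 of the other bile acid genes were lower and higher, and 254 and 5790 of all genes. Nr0b2, never called as lower, was -0.035 with normexp and quantile, -0.083 in the authors' table and -0.53 without the 2 dimmest control arrays, where Cyp7a1 was -1.07. The percentile over all probes gave 1617 higher genes, the absence of a filter 5801 lower, and the filter on all 10 arrays 1154 higher with 4 of the other bile acid genes higher. Higher genes made up 70.7% of calls, and 50.3%, 58.9%, 60.6%, 60.8%, 91.8% and 95.8% with the percentile over all probes, quantile normalisation, normexp and quantile, the authors' table, spike-in and hepatocyte marker scaling; it was 30.9% without a filter and 55.0% when detection on all 10 arrays was required. The cause of these changes was not tested.

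Leaving out 1 rat gave -1.88 to -1.09 for Cyp7a1, -0.12 to 0.85 for Nr0b2 and 12 to 19 unequal pairs. A pairing of the rats by replicate number was not shown, and this check cannot exclude it. The deviations of 2 of 5 same-numbered pairs were correlated over 0.1 (from -0.22 to 0.20), and 4 of 10 arrays matched best with their own number. With the replicate number as a block 1121 genes were lower and 2685 higher, against 1116 and 2689.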

Other observations

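Likeness in pattern was measured as the root mean square difference between the log2 values of 2 genes over the 10 arrays, each centred on its own mean. Nearest to Slc27a5 were Prodh, a proline oxidase, at 0.28 and Cyp3a9 at 0.33, whose own differences were -3.69 and -3.99. Nearest to Cyp8b1 were Gulo, the last enzyme of vitamin C synthesis, at 0.30 and Cyp2d2 at 0.32. Nearest to Slc10a1 were Amacr, a racemase of bile acid side chain oxidation, at 0.33 and Hacl1, a peroxisomal lyase, at 0.38. Nearest to Abcb11 were Sec14l2 at 0.16 and the uptake carrier Slco1a1 at 0.24, and nearest to Nr1h4 were Dcaf11 at 0.16 and Otc, an enzyme of the urea cycle, at 0.16. Nearest to Cyp27a1 were Marchf2 at 0.14 and Cidec at 0.16.

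The 3 members with the widest spread had no near neighbour of that kind. For Cyp7a1 the nearest were Ero1b at 0.69 and Fmo5 at 0.70, for Cyp7b1 Acsm3 at 0.55 and Hsd3b1 at 0.70, and for Nr0b2 Nedd9 at 0.53 and Kcnk5 at 0.54. These distances describe the 10 arrays and carry no test.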
